A study of Mus musculus with 6 samples.

Results

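miR-208a, miR-208b and miR-499 are the microRNAs (miRNAs) that mouse heart muscle makes from introns of its own myosin heavy chain genes. The tables name them mmu-miR-208a, mmu-miR-208b and mmu-miR-499. They were taken by these names from both deposited tables, as 3 of the 698 mature miRNAs listed, and each of the 3 passed the filter on low counts. The libraries came from left ventricles of 3 R719W and 3 WT mice. R719W mice carried the R719W mutation of Myh6 on 1 allele, written aMHC719/+ in the labels, in the gene that also holds miR-208a. All 6 mice, WT included, had been given cyclosporin, which blocks the phosphatase calcineurin, over 3 weeks. The labels give neither age nor strain, and no untreated mice enter the comparison. The question the study design poses for these miRNAs is whether they differ between the genotypes of this hypertrophic cardiomyopathy model, in which a mutated cardiac myosin thickens the heart wall.

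Myh6 encodes the fast α-myosin heavy chain, the main motor of the adult mouse ventricle, and Myh7 encodes the slower β-myosin heavy chain, which the mouse ventricle uses before birth and takes up again in part when the adult heart is under load. Myh7b encodes a further, less abundant myosin heavy chain. In mice, miR-208a is known to be needed for the return of Myh7 in the stressed heart, and the 3 miRNAs are described as a network that holds down repressors of slow muscle genes such as Sox6, Purb and Sp3. Each miRNA is cut from an intron of its host's transcript, so its level is often read beside that of the host, and no host transcript was measured here.

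The mature sequences are shown because their first bases, the seed that pairs with target transcripts, link the 3 miRNAs. All 3 listed sequences matched a RefSeq mature miRNA exactly, after T was read as U (GRCm38.p6). Capitals mark the seed, bases 2 to 8 from the 5′ end.
miR-208a: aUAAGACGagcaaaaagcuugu
miR-208b: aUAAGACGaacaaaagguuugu
miR-499: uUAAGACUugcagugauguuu

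miR-208a and miR-208b share all seed bases, and miR-499 shares bases 2 to 7 with both. No other miRNA of the 698 has the same bases 2 to 7 as these 3. Counted from the 5′ end, miR-208a and miR-208b are the same at 19 of 22 positions (86.4%) and differ by G10A, A16G and C18U, with the base of miR-208a first. miR-499 is the same as miR-208a at 12 of the 21 positions they share and as miR-208b at 10. Every listed sequence other than miR-208b, miR-499 included, differs from miR-208a at 10 or more positions when a base of extra length counts as a difference. No source used here says how reads lying near to both were assigned.

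The hairpins are shown to place each mature miRNA on its arm, in capitals.
miR-208a hairpin: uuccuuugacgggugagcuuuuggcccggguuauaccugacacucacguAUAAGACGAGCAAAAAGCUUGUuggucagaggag
miR-208b hairpin: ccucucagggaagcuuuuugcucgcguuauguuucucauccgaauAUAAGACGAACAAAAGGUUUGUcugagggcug
miR-499 hairpin: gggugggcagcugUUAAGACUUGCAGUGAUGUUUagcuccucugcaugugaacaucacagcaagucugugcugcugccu

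miR-208a and miR-208b lie on the 3′ arm, at bases 50 to 71 of 83 and 46 to 67 of 77, whereas miR-499 lies on the 5′ arm, at bases 14 to 34 of 79. The opposite arms of the 3 hairpins are not among the listed miRNAs and were not analysed here. The miR-208a hairpin (RefSeq, GRCm38.p6, chr14:54949060-54949142, minus strand) lies in intron 29 of Myh6, an intron of 542 bases in GENCODE M21. The miR-208b hairpin (chr14:54975700-54975776, minus strand) lies in intron 31 of Myh7, an intron of 461 bases. Their host genes follow each other on the same strand, with 3756 bases between the genes and 26557 bases between the hairpins. The miR-499 hairpin (chr2:155622880-155622958, plus strand) lies in intron 19 of Myh7b, an intron of 481 bases. None of the hairpins overlaps an exon of the principal host transcripts.

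**Figure D1:**
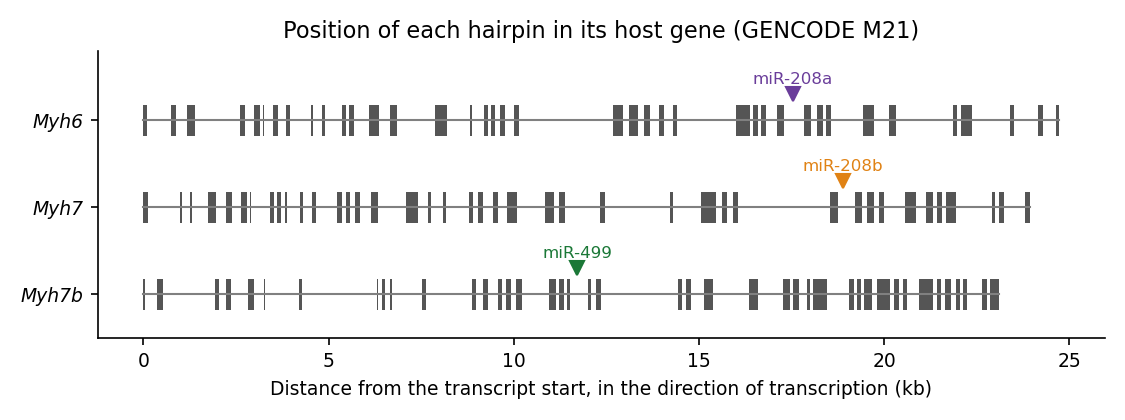
Exons (bars) of the principal transcript of each host gene, against the distance from the transcript start in kb, with the hairpin marked by a triangle. miR-208a and miR-208b lie in intron 29 of Myh6 and intron 31 of Myh7, towards the end of each gene, and miR-499 in intron 19 of Myh7b, near its middle.

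The libraries held 865845 to 1168379 reads on listed miRNAs in R719W and 765425 to 1192020 in WT, so 3 reads, the limit that a count of 0 allows, correspond to 2.40 to 4.06 CPM, the share of reads on the per-million scale, after scaling. The reads carry no molecular identifiers, so this limit and the intervals on shares cover counting error only. R719W replicate 1 stood apart from the other R719W libraries: the let-7 family took 20.5% of its reads, against 11.9% and 13.5% in the other R719W libraries, and 7.53% to 11.6% in WT. In a principal component analysis it lay at 5.57 on the second component (23.2% of the variance), with the other R719W libraries at −4.51 and −2.73. The log2 fold changes of the 3 miRNAs, and some of their ratios and shares, are therefore given with and without it. Levels below are CPM scaled by TMM (trimmed mean of M-values), and genotypes were compared by edgeR's quasi-likelihood test over the 181 miRNAs with enough reads. A miRNA was called at a Benjamini-Hochberg adjusted p below 0.05. At that threshold 19.9% of the tested miRNAs were called, 12.7% higher and 7.18% lower in R719W.

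miR-499 was lower in R719W, and it was the member that passed the test. Its level was 6578, 7814 and 5329 CPM in R719W replicates 1, 2 and 3, against 15016, 12907 and 15419 CPM in WT replicates 1, 2 and 3. Every R719W library lay below every WT library without overlap. The means were 6574 ± 1242 CPM in R719W and 14447 ± 1349 CPM in WT (SD, n = 3 each), a 2.20-fold lower level in R719W. The log2 fold change of R719W over WT was −1.14 (SE 0.20, 95% interval −1.58 to −0.69, edgeR adjusted p = 0.00808). The share of reads, which scales each library by its own total in place of TMM, shows the same order. miR-499 took 0.625%, 0.836% and 0.652% of the reads in R719W, against 1.36%, 1.38% and 1.28% in WT. The 95% Wilson intervals of these shares ran from 0.610% to 0.853% over the R719W libraries and from 1.26% to 1.41% over the WT libraries. The means were 0.704% ± 0.115 in R719W and 1.34% ± 0.0533 in WT (SD, n = 3 each, exact permutation test, two-sided, p = 0.1, the smallest p that 3 against 3 libraries allow, and 0.25 adjusted over the 5 shares compared). miR-499 stood at place 25, 21 and 26 among all miRNAs of the R719W libraries, ordered by reads, against place 12, 13 and 11 in the WT libraries. In whole ventricle, fewer muscle cells and less of a miRNA per cell cannot be told apart.

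Among the tested miRNAs, 3 had a more negative log2 fold change than miR-499, namely miR-19b, miR-342-3p and miR-30e (chosen after their values were seen), each with a lower mean level. Of the 20 miRNAs at or above the mean level of miR-499, 4 were called: miR-499, miR-378, let-7i and miR-23b (the last 3 chosen after their values were seen). miR-499 had the most negative log2 fold change of these 20. Absence of overlap between the genotypes was common, since 40.9% of the tested miRNAs had none. The miR-499 call was lost without WT replicate 1 (log2 fold change −1.19, edgeR adjusted p = 0.0558) and without WT replicate 3 (−1.10, adjusted p = 0.0669). In those fits 2.07% and 2.15% of the miRNAs tested were called at all. Without R719W replicate 1 it remained, at −1.17 (adjusted p = 9.64e-05). DESeq2 called miR-499 as well (log2 fold change −1.24, adjusted p = 6.6e-06), in a test that called 15.5% of the miRNAs.

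miR-208a had the second highest mean level in reads, which need not be its place in molecules. It lay below WT on average in R719W without passing the test. Its level was 42624, 74479 and 66562 CPM in R719W replicates 1, 2 and 3, against 98407, 69003 and 107010 CPM in WT replicates 1, 2 and 3. WT replicate 2 lay between the R719W values, so the genotypes overlapped. The means were 61222 ± 16585 CPM in R719W and 91473 ± 19929 CPM in WT (SD, n = 3 each). The log2 fold change was −0.58 (SE 0.26, edgeR adjusted p = 0.13), and its 95% interval, −1.16 to 0.0041, held changes from more than a 2-fold fall to none. Much of the difference in the share of reads lay in R719W replicate 1. miR-208a took 4.05%, 7.97% and 8.15% of the reads in R719W, against 8.89%, 7.39% and 8.88% in WT. R719W replicates 2 and 3 thus lay within the WT range, and R719W replicate 1 far below it. The mean share was 1.67 percentage points lower in R719W with all libraries, and 0.33 percentage points lower without R719W replicate 1 (exact permutation test, two-sided, p = 0.3 and 0.3 adjusted over the 5 shares, with all 6 libraries). By reads, miR-208a stood at place 4 in that library and at place 2 in each of the others. On the TMM scale the difference without that library was −0.41 (SE 0.20, edgeR adjusted p = 0.112).

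miR-208b was a minor member, and its average was higher in R719W without passing the test. Its level was 404, 573 and 1014 CPM in R719W replicates 1, 2 and 3, against 517, 340 and 395 CPM in WT replicates 1, 2 and 3. R719W replicate 3 had by far the highest value, and R719W replicate 1 lay within the WT range. The means were 664 ± 315 CPM in R719W and 417 ± 90.4 CPM in WT (SD, n = 3 each). The log2 fold change was 0.67 (SE 0.32, 95% interval −0.055 to 1.40, edgeR adjusted p = 0.156), and 39 of the tested miRNAs had a higher one. These levels rest on 397, 716 and 1075 reads in R719W and 382, 279 and 391 reads in WT, far above the floor of 3 reads. Counting error was small beside the spread between libraries: the share of reads in R719W replicate 3 was 0.124% (95% Wilson interval 0.117 to 0.132%), against 0.0384% (0.0348 to 0.0424%) in R719W replicate 1. The result rested on which R719W libraries were used. Without R719W replicate 1 miR-208b was called higher, at a log2 fold change of 0.87 (SE 0.22, edgeR adjusted p = 0.00333), in a fit that called 30.6% of its miRNAs. Without R719W replicate 3 it stood at 0.20 (SE 0.29, adjusted p = 0.603). It was also called with library totals in place of TMM (log2 fold change 0.95, edgeR adjusted p = 0.047), where 20.4% of the miRNAs were called and the median miRNA stood at 0.32.

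**Figure D2:**
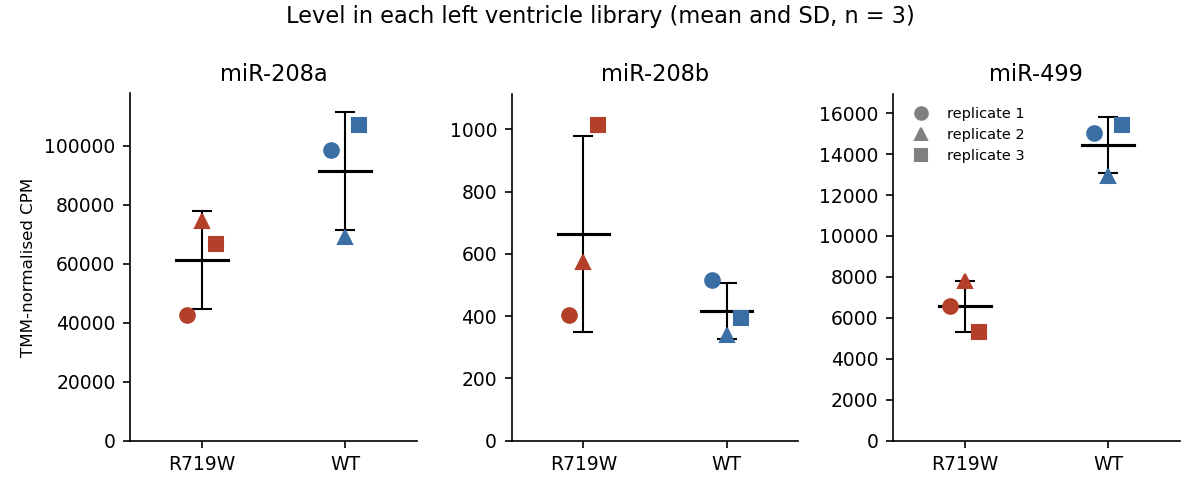
Level of each miRNA (TMM-normalised CPM, y axis from 0) in the 3 R719W and 3 WT libraries; symbols are replicates, the horizontal line is the mean and the bar the SD. miR-499 shows no overlap between genotypes (5329 to 7814 CPM in R719W, 12907 to 15419 CPM in WT), while for miR-208a and miR-208b the genotypes overlap.

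**Figure D3:**
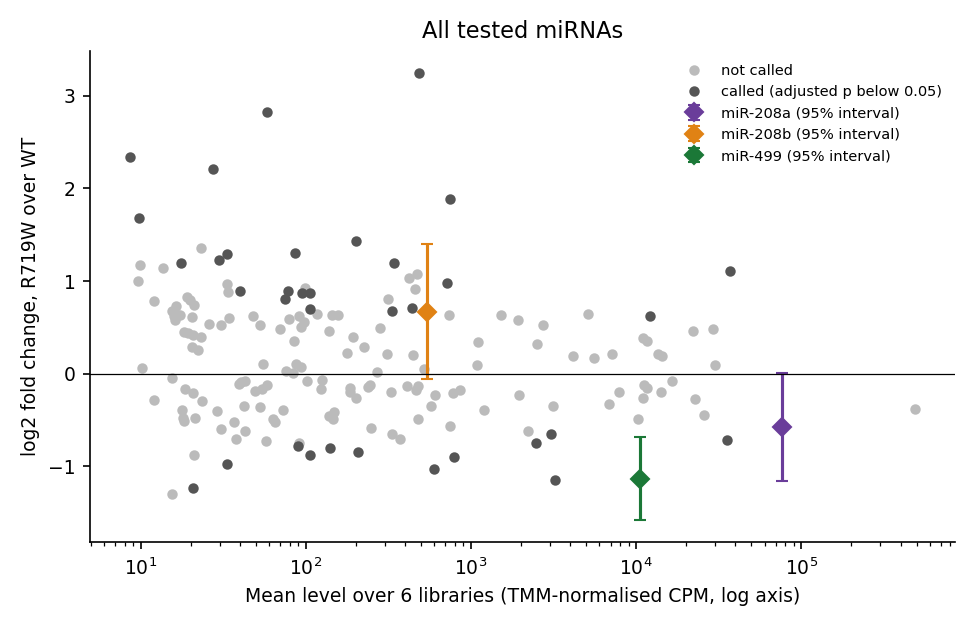
log2 fold change of R719W over WT against the mean level (log axis) for the 181 tested miRNAs, with the myosin intron miRNAs as diamonds with 95% intervals. The interval of miR-499 lies below 0, and those of miR-208a and miR-208b reach 0.

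Within a library, the order of the 3 miRNAs was the same in all 6: miR-208a highest, then miR-499, then miR-208b. Ligation and amplification favour some sequences over others, so these distances between miRNAs are of reads, not of molecules. miR-208a exceeded miR-499 by 6.48-fold, 9.53-fold and 12.5-fold in R719W replicates 1, 2 and 3, against 6.55-fold, 5.35-fold and 6.94-fold in WT. miR-499 exceeded miR-208b by 16.3-fold, 13.6-fold and 5.25-fold in R719W, against 29.1-fold, 37.9-fold and 39.0-fold in WT. Among their neighbours in mean level, miR-208a came after miR-1, whose lowest library (325172 CPM) lay above the highest of miR-208a, and before let-7i, whose range over the libraries overlapped that of miR-208a. miR-499 lay between miR-126-3p and miR-29c, and miR-208b between miR-149 and miR-103, each with overlapping ranges.

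Ratios between the members within one library cannot be changed by any scaling between libraries. Those of miR-208b to miR-208a and to miR-499 did not overlap between the genotypes. On the TMM scale 40.9% of the tested miRNAs showed no overlap either, and how many other miRNAs have ratios without overlap was not computed. For each 1000 reads of miR-208a there were 9.49, 7.69 and 15.2 reads of miR-208b in R719W replicates 1, 2 and 3, against 5.25, 4.93 and 3.69 in WT. The lowest R719W ratio lay above the highest WT ratio, R719W replicate 1 included. On the log2 scale the ratio was higher in R719W by 1.18, or 2.27-fold (exact permutation test, two-sided, p = 0.1, the smallest possible, and 0.15 adjusted over the 3 ratios). It was 0.90 to 1.39 when any 1 library was left out. As a share, miR-208b made up 1.07% ± 0.385 of the miR-208a and miR-208b reads in R719W and 0.460% ± 0.0817 in WT (SD, n = 3 each). Whether misassigned miR-208a reads form part of the miR-208b count was not tested.

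Of the 3 ratios, that of miR-208b to miR-499 had the largest difference between genotype means. It was 6.15, 7.33 and 19.0 reads of miR-208b per 100 of miR-499 in R719W, against 3.44, 2.64 and 2.56 in WT, again with no overlap. The log2 difference was 1.73, or 3.33-fold (exact permutation p = 0.1, 0.15 adjusted over the 3 ratios), and 1.23 without R719W replicate 3, the library with the highest ratio. The ratio of miR-499 to miR-208a showed overlap. It was 15.4, 10.5 and 8.01 reads of miR-499 per 100 of miR-208a in R719W, against 15.3, 18.7 and 14.4 in WT. R719W replicate 1 lay within the WT range, and the other R719W libraries lay below it. Among the R719W libraries, replicate 1 had the lowest miR-208a level, while its miR-499 level lay between those of the others. The log2 difference was −0.56 (exact permutation p = 0.3, 0.3 adjusted) and −0.81 without R719W replicate 1.

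**Figure D4:**
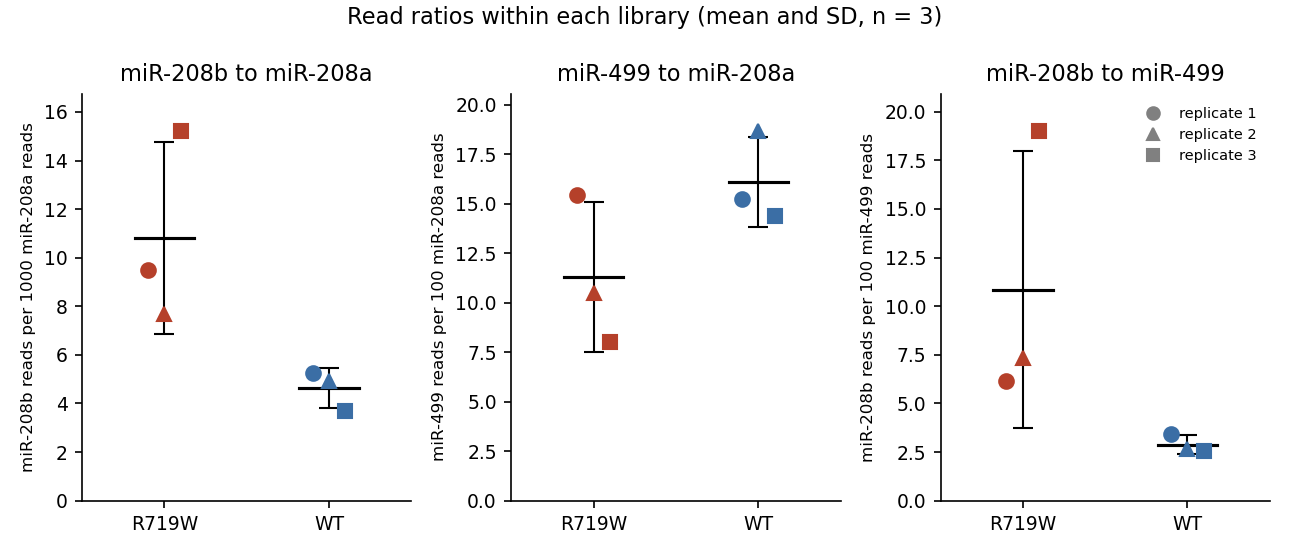
Read ratios between the miRNAs within each library (y axes from 0), by genotype, with the mean (line) and SD (bar) over 3 libraries. The miR-208b ratios show no overlap between genotypes; for miR-499 to miR-208a, R719W replicate 1 (15.4 per 100) lies among the WT libraries (14.4 to 18.7).

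Taking the 3 miRNAs together, they held 4.71%, 8.87% and 8.92% of the reads in R719W, against 10.3%, 8.81% and 10.2% in WT. R719W replicates 2 and 3 lay just above the lowest WT library, and R719W replicate 1 well below all. The mean difference was −2.27 percentage points (exact permutation p = 0.3 and 0.3 adjusted over the 5 shares), and −0.87 without R719W replicate 1. Most of these reads were miR-208a, at 85.9% to 91.3% of the sum in R719W and 83.9% to 87.1% in WT. miR-499 made up 13.3%, 9.43% and 7.31% of the sum in R719W, against 13.2%, 15.7% and 12.5% in WT.

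The tests were repeated with each library scaled to its miR-208a reads, which asks how each miRNA moved relative to the Myh6 intron miRNA. On that scale miR-208b was higher in R719W by a log2 fold change of 1.22 (SE 0.34, 95% interval 0.46 to 1.99, edgeR adjusted p = 0.0402). Of the 180 other miRNAs tested, 18.3% were called, each of them higher, and their median log2 fold change was 0.70, so miR-208b lay 0.53 above the median miRNA, and 52 of the 180 lay higher still. miR-499 was on the other side of 0, at −0.51 (SE 0.34, edgeR adjusted p = 0.281). Relative to the median miRNA it stood at −1.21, and 176 of the 180 lay higher. The miR-208b call on this scale was lost without R719W replicate 3 (log2 fold change 0.89, edgeR adjusted p = 0.118). It was also lost without WT replicate 1, 2 or 3 (log2 fold change 1.33, 1.27 and 1.09, edgeR adjusted p 0.161, 0.0589 and 0.185).

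Scaling to miR-1, the miRNA with the most reads in these libraries and known as a brake on muscle cell growth, gave a similar order. For each 100 miR-1 reads there were 8.63, 16.0 and 20.5 miR-208a reads in R719W, against 17.3, 15.6 and 16.1 in WT, so that R719W replicates 1 and 3 lay on opposite sides of the WT libraries. miR-499 stood at 1.33, 1.68 and 1.64 per 100 miR-1 reads in R719W, against 2.64, 2.92 and 2.32 in WT, with no overlap. How many other miRNAs show no overlap relative to miR-1 was not computed, and on the TMM scale 40.9% of those tested showed none. miR-208b stood at 0.0819, 0.123 and 0.312 in R719W, against 0.0910, 0.0771 and 0.0595 in WT. The edgeR log2 fold changes relative to miR-1 were −0.12 (SE 0.37, adjusted p = 0.857) for miR-208a, 1.18 (SE 0.41, adjusted p = 0.0297) for miR-208b and −0.76 (SE 0.38, adjusted p = 0.117) for miR-499. The median miRNA stood at 0.50 on this scale, and 20% were called, each of them higher in R719W. Without R719W replicate 1, miR-208a stood at 0.16 on this scale (a fit chosen after seeing the data, edgeR adjusted p = 0.748). The miR-499 call therefore depended on the scaling, whereas its negative sign did not, over the scalings tried. Relative to the median miRNA on the miR-1 scale, miR-499 stood at −1.26, and 177 of 180 miRNAs lay higher. The miR-208b call relative to miR-1 was lost without R719W replicate 3 (log2 fold change 0.44, edgeR adjusted p = 0.503). It was also lost without WT replicate 1 (1.33, adjusted p = 0.175) or WT replicate 3 (1.03, adjusted p = 0.254).

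**Figure D5:**
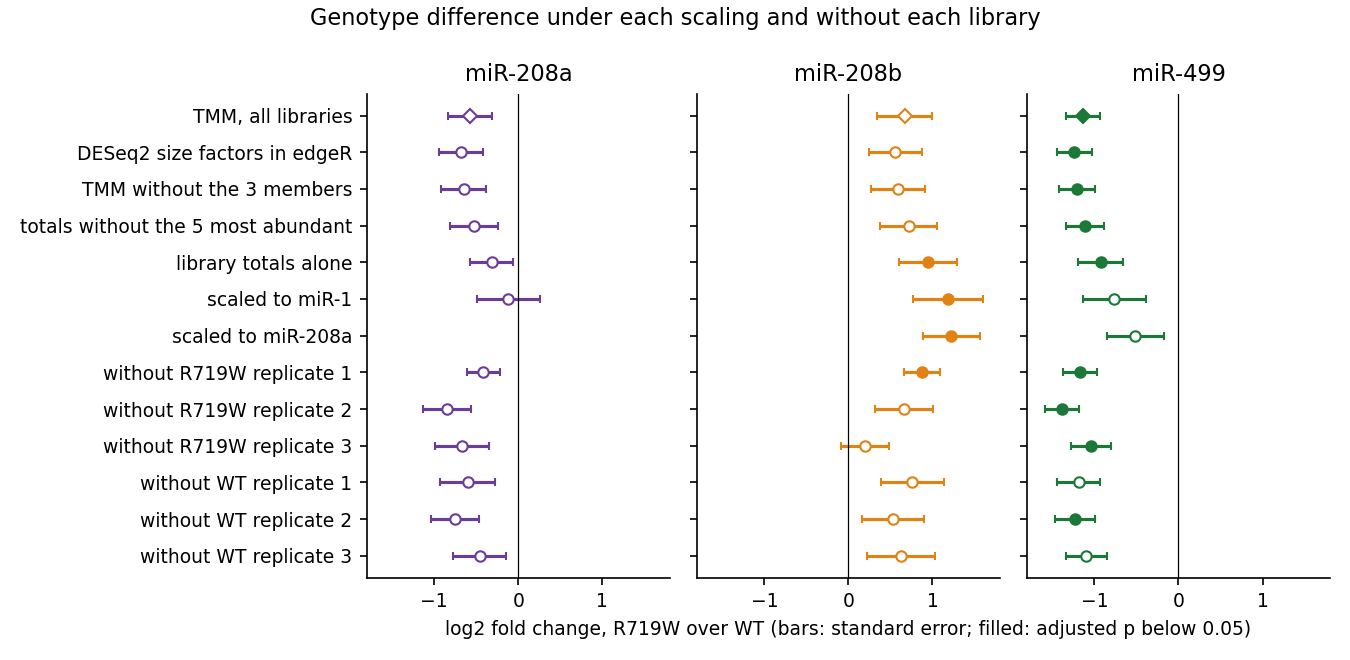
edgeR log2 fold change of R719W over WT for each miRNA under other scalings and with each library left out (bars, SE; filled symbols, adjusted p below 0.05). miR-499 is below 0 and miR-208b above 0 in each row; miR-208a was not called in any.

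The wider list of muscle miRNAs held 9 entries, each with at least 1 read, of which 6 had enough reads to be tested. Of these 6, miR-499 was called lower, and miR-208a, miR-208b, miR-1, miR-133a and miR-486 were not called. Beside the 19.9% of all tested miRNAs that were called, 1 of 6 is no result about the list. Its median log2 fold change was −0.48, against 0.098 over all 181. The 3 members are among these 6, so this median in part repeats their own values. miR-1 had 427773 ± 90063 CPM in R719W and 557754 ± 111530 CPM in WT (SD, n = 3 each), with a log2 fold change of −0.38 ± 0.25 (SE, edgeR adjusted p = 0.247). miR-133a, which restrains growth of heart muscle cells in mice, had 225 ± 48.4 CPM in R719W and 250 ± 41.1 CPM in WT (SD, n = 3 each). Its log2 fold change was −0.15 (SE 0.23), and that of miR-486, found in muscle and red blood cells, −0.62 (SE 0.29). miR-206, a skeletal muscle miRNA, had 5, 2 and 2 reads in R719W and 0 in each WT library, at or near the floor of 3 reads in each library, and no fold is given. miR-133b had at most 6 reads in any library, and miR-133a* at most 4.

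Profiles over the 6 libraries were compared by the root mean square difference of log2 levels, each centred on its own mean, as a description. The 5 profiles nearest to miR-499 were miR-185, miR-30e*, miR-151-3p, miR-30c-2* and miR-342-3p, at distances of 0.13 to 0.27 log2 units, against a spread of 0.60 of miR-499 around its own mean. Since they were chosen for a profile like that of a miRNA called lower, their own calls, all lower, follow from the choice. The 5 nearest to miR-208a were miR-20a, miR-30a, miR-143, miR-151-5p and miR-378*, at 0.098 to 0.15, against its own spread of 0.43. The 5 nearest to miR-208b were miR-574-3p, miR-532-5p, miR-27b, miR-210 and miR-497, at 0.24 to 0.34, against its own spread of 0.52. The members were not near each other: miR-499 came at place 56 of 180 by nearness to miR-208a, miR-208b at place 108, and miR-499 at place 173 by nearness to miR-208b.

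Marker miRNAs of other cell types are given as summed levels. The 5 fibroblast entries, miR-214 the most abundant, summed to 1010 to 1380 CPM in R719W and 192 to 225 CPM in WT, and 3 of the 4 tested were called higher, against 12.7% of all tested miRNAs. The 9 leukocyte entries, miR-142-3p the most abundant and miR-150* at 0, summed to 1122 to 1499 CPM in R719W and 907 to 1044 CPM in WT, with 2 of 6 tested called lower, against 7.18% of all. The 2 endothelial entries, both arms of miR-126, summed to 15193 to 16805 CPM in R719W and 17980 to 22206 CPM in WT, and neither was called. No tested entry of the lists that follow was called. The sums of smooth muscle entries (17214 to 25585 CPM in R719W, 20925 to 36206 CPM in WT) and erythroid entries (1361 to 2570 CPM in R719W, 1966 to 3301 CPM in WT) overlapped. Epithelial entries, 6 of 12 with a read, miR-203 the most abundant and miR-205 at 0, summed to 351 to 439 CPM in R719W and 400 to 472 CPM in WT. Neuronal entries, miR-9 the most abundant, summed to 8.15 to 13.6 CPM in R719W and 8.08 to 17.6 CPM in WT, with miR-124 at 0. The liver miRNA miR-122 stood at 0.80 to 1.02 CPM in R719W and 0 in WT, below the floor of 3 reads in each library. Their part in the differences of the 3 myosin intron miRNAs was not tested.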

How the data were processed

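Small-RNA libraries were made from total RNA of the left ventricle isolated with a kit that keeps small RNAs, per the labels' protocols. The authors deposited read counts per mature miRNA, as whole numbers without normalization, and a CPM value, the count over the library's reads on all listed miRNAs. No source used here names the aligner, the mismatches allowed, the annotation release or the genome build. Columns were assigned to samples by barcode. Each genotype had its own deposited table and its own set of barcodes, so a difference tied to these cannot be told apart from genotype. Counts were filtered by filterByExpr (minimum count 10, total 15; 181 of 698 kept), scaled by TMM and tested with edgeR 4.0.16 in R 4.3.3, two-sided. Standard errors were derived from the fold change and its F statistic.

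The edgeR step was tested on 20 simulated sets of the 181 miRNAs, with 40 of them changed in each. It recovered 69.8% of 2-fold and 99.2% of 4-fold changes, and 3.85% of its calls were false on average. Smaller changes, such as those of miR-208a and miR-208b, were not simulated. Ratios and shares were tested by exact permutation over libraries. Alternatives used DESeq2 1.42.0, limma 3.58.1 on the deposited CPM, other scalings and filters, a block for replicate number, and each library left out in turn. The labels call the samples biological replicates, and replicate pairs differed beyond sampling noise (chi-square per degree of freedom 32.8 to 283). The rule for miRNAs named besides the members took rows sharing a seed or a name with a member, the muscle list, the 5 nearest profiles, the neighbours in level and the most abundant entry of each marker list. Some markers at 0 are named outside it, and the report says which miRNAs were chosen after their values were seen. The members and lists were chosen with earlier results of these data known.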

Additional observations from a re-analysis of the deposited data

How the results depend on the processing

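The signs of all 3 log2 fold changes, of the 3 ratios and of the shares held when 1 choice was changed at a time. Scaling to miR-1 or miR-208a with 1 library left out as well was chosen after seeing the data. On the miR-1 scale miR-208a then ranged from −0.41 to 0.16, above 0 without R719W replicate 1 alone (0.16, edgeR adjusted p = 0.748). On that scale miR-208b stood at 1.52, 1.38 and 0.44 without R719W replicates 1, 2 and 3 and at 1.33, 1.20 and 1.03 without WT replicates 1, 2 and 3, and miR-499 at −0.66, −0.82 and −0.80, and −0.76, −0.68 and −0.84. On the miR-208a scale, in the same order, miR-208b stood at 1.31, 1.42 and 0.89, and 1.33, 1.27 and 1.09, and miR-499 at −0.80, −0.46 and −0.32, and −0.55, −0.39 and −0.59. miR-499 was called in none of these 12 fits, and miR-208b in 5 of 12. miR-208b was called with library totals alone (0.95), scaled to miR-1 (1.18) and scaled to miR-208a (1.22). miR-499 was not called when scaled to miR-1 (−0.76) or to miR-208a (−0.51), and it was called with DESeq2 (−1.24), limma on CPM (−0.94) and the other scalings and filters. miR-208a was called in no alternative. These scalings moved the median of all miRNAs by 0.21 (library totals), 0.39 (miR-1), 0.61 (miR-208a) and −0.11 (DESeq2's size factors) on the log2 scale; the causes of the lost and gained calls were not tested. Leaving out 1 library gave −0.85 to −0.41 for miR-208a, 0.20 to 0.87 for miR-208b and −1.39 to −1.04 for miR-499. The count of called miRNAs was 36, with 20 for totals without the 5 most abundant miRNAs, 22 for 100 reads in 3 libraries, and 4 to 56 with 1 library left out. Called muscle miRNAs numbered 2 with library totals or no filter, and 0 to 3 with 1 library left out. The split of higher and lower calls was 23 and 13 with TMM, 34 and 3 with library totals, 12 and 15 with size factors from DESeq2, 14 and 6 without the 5 most abundant, 18 and 15 with TMM without the 3 members, 36 and 0 scaled to miR-1, and 33 and 0 scaled to miR-208a.

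Deviations from the genotype means correlated at −0.17, −0.36 and −0.012 between same-numbered libraries, and at −0.24 to 0.36 between differently numbered ones. Correlations among so few libraries cannot decide whether the numbers pair anything. With the replicate block the log2 fold changes were −0.60, 0.59 and −1.15 for miR-208a, miR-208b and miR-499, with 30 calls and the same members called. With 3 libraries a genotype, permutation over libraries cannot give a p below 0.1, so ratios and shares cannot pass 0.05 at this size, and counting error was smaller than the spread between libraries for each of the 3 miRNAs.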
